A study of Mus musculus with 4 samples.

Results

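The genes described here are 10 heat shock chaperones of mouse pancreatic islet cells, out of 32285 genes counted. They were taken by symbol and fall into 5 stress-inducible members (Hspa1a, Hspa1b, Dnajb1, Hsph1 and Hsp90aa1) and 5 constitutive members (Hspa8, Hsp90ab1, Dnaja1, Hspd1 and Hspe1). The list was drawn up after the difference between the genotypes in these same libraries had been seen, so every genotype value below is a description without a test. Hspd1 and Hspe1 belong to the mitochondrial matrix rather than the cytosol.

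The study asked what a loss of CCR2+ myeloid cells around birth does to islet cells later in life. The CCR2-DTR+/- mice carry the diphtheria toxin receptor in CCR2-expressing cells, and their littermates without the transgene (CCR2-DTR-/-) are the wild types (WT). Animals of both genotypes were females on a C57b6/J background, and all of them received diphtheria toxin, beginning 2 days after birth and repeated every 48 hours up to 4 injections. The 4 libraries are therefore CCR2-DTR at 6 months of age, WT at 6 months, CCR2-DTR at 1 month and WT at 1 month. Each was made on the 10x Genomics Chromium platform from 300 islets of 2 to 3 animals, which were pooled, so a group is 1 library and no value has a replicate. All intervals below are 95% intervals for counting error only and do not hold the spread between animals.

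Heat shock chaperones bind unfolded stretches of other proteins and let them fold without clumping. Hsp70 proteins do this in cycles of ATP hydrolysis that an Hsp40 partner starts and an Hsp110 partner resets, and they hand many clients on to Hsp90, while Hsp60 and Hsp10 form a folding chamber in mitochondria. The transcription factor HSF1 switches the inducible genes on when misfolded proteins build up, and it does so by binding repeated GAA units in their promoters. Warming and dissociation of tissue are known to switch it on too.

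The inducible Hsp70 pair, Hspa1a and Hspa1b, lies on chromosome 17 of GRCm38 at chr17:34969190-34972156 and chr17:34956436-34959238, both on the minus strand and 9952 bases apart. The 150 bases before each start are printed because these are the members with the widest age ratios and because the copies are almost the same. The windows run from chr17:34972157-34972306 for Hspa1a and chr17:34959239-34959388 for Hspa1b, minus strand, RefSeq on GRCm38.p6, read 5′ to 3′. Capitals mark a pair of head-to-head GAA units (GAANNTTC) 104 to 97 bases before the start, and a CCAAT box in reverse, ATTGG, 67 to 63 bases before it.
Hspa1a: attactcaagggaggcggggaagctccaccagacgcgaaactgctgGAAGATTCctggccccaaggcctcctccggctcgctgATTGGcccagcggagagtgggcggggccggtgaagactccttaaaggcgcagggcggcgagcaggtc
Hspa1b: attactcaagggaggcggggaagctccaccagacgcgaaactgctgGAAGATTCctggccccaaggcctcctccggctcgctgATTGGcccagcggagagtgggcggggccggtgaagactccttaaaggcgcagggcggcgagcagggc
The pair differed at 1 of these 150 bases, and at 4 of the 300 bases of the full window (250 before the start and 50 after it). Within the transcripts, 58.8% of the 50-base stretches of Hspa1a occurred unaltered in Hspa1b, but 0% of those in the last 500 bases. How the counting dealt with shared stretches is not given in the sources used here, so the split of counts between these 2 genes is uncertain and their sum is safer.

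The mitochondrial pair starts head to head. Hspe1 (chr1:55088132-55091307, plus strand) and Hspd1 (chr1:55077835-55088243, minus strand) overlap at their starts, and the stretch at chr1:55088059-55088076, plus strand, 89 to 72 bases before the start of Hspe1, holds 2 overlapping matches to the three-unit heat shock element (GAA units that alternate in direction, each 2 bases from the next), all of it in capitals.
Hspe1: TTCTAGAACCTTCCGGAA
That element occurred in 0.603% of 32851 promoter windows of the same length, on either strand, while its shorter form GAANNTTC occurred in 7.86%, TTCNNGAA in 8.52% and CCAAT in 37.4%. RefSeq windows were held for 7 of the 10 members. Hsph1 had a match to the longer pattern that began 36 or 15 bases after its start, depending on the window. Dnaja1 had GAANNTTC 124 to 117 bases before the start of its first window only, and its other windows held none of the heat shock patterns. The Dnajb1 windows held none of these patterns either, and only the first held CCAAT. Hspa8, Hsp90aa1 and Hsp90ab1 had no window. A match is a run of letters and says nothing of binding.

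The libraries held 5089 to 12444 cell barcodes, of which 3633 to 8736 were kept, with a median of 8859 to 14704 unique molecular identifier (UMI) counts per kept cell. Any 2 libraries shared 4 to 15 barcodes. Clustering gave 22 clusters, and 6 classes with at least 50 cells in every library could be named from their markers: alpha-like, beta-like, delta-like, endothelial-like, macrophage-like and mesenchymal-like cells. The defining hormone (Gcg, Ins2 or Sst) had a UMI in 99.9% to 100% of the endocrine cells, Pecam1 in 93.5% to 96.6% of endothelial-like, C1qa in 82.3% to 92.6% of macrophage-like and Col3a1 in 58.3% to 88.3% of mesenchymal-like cells. As a check of the labels, Ccr2 had 28 and 44 UMIs in CCR2-DTR alpha-like cells at 6 months and 1 month, against 1 and 0 in WT ones, and 70 and 66 in CCR2-DTR beta-like cells, against 0 and 1 in WT ones. The libraries labelled CCR2-DTR thus differed from those labelled WT at Ccr2 in these cells at both ages. In macrophage-like cells Ccr2 was present in all libraries, as UMIs scaled to a common total (CPM): at 323 CPM in CCR2-DTR against 210 in WT at 6 months and at 287 in CCR2-DTR against 101 in WT at 1 month.

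The level of a gene is given as CPM, its UMIs scaled to the usual common total of UMIs of the class, with no division by length, so levels are compared between classes and libraries and not between genes. Hspa1a was lowest in beta-like and highest in macrophage-like cells in all 4 libraries, and so was Hspa1b. In CCR2-DTR at 6 months Hspa1a followed the order macrophage-like, mesenchymal-like, endothelial-like, delta-like, alpha-like and beta-like cells, and the intervals of mesenchymal-like, endothelial-like and delta-like cells overlapped. The UMIs of Hspa1a, Hspa1b and Dnajb1 together were 9.80 times as high in macrophage-like as in beta-like cells in CCR2-DTR and 10.9 times in WT at 6 months, and 6.16 times in CCR2-DTR and 8.67 times in WT at 1 month. The other members had other peaks. Dnajb1, Hsph1 and Hsp90aa1 were highest in delta-like cells, Hsp90ab1 and Dnaja1 in endothelial-like cells, and Hspa8 and Hspe1 in macrophage-like cells in all 4 libraries. Hspd1 had no fixed peak. Beta-like cells carry a large share of hormone UMIs.

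**Figure D1:**
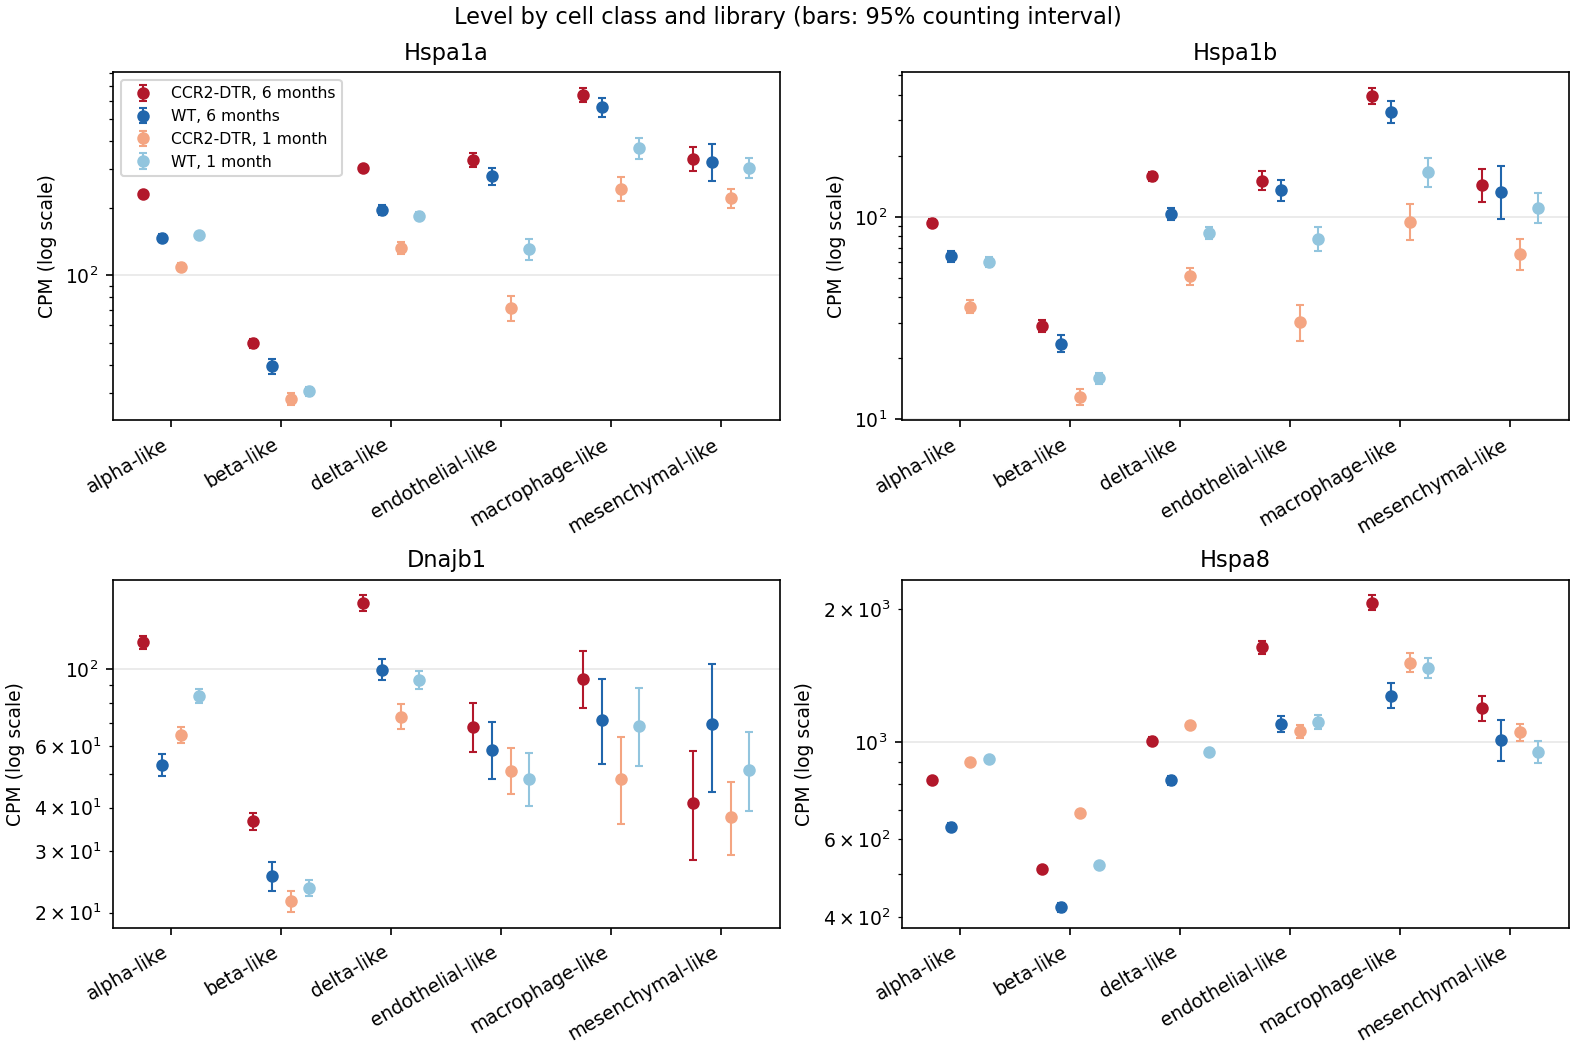
Level (CPM, log axis) of Hspa1a, Hspa1b, Dnajb1 and Hspa8 in 6 cell classes, 1 point per library, with bars for the 95% counting interval. For Hspa1a and Hspa1b the CCR2-DTR point lies above the WT point at 6 months and below it at 1 month in each class. The bars overlap at 6 months for both genes in macrophage-like and mesenchymal-like cells and for Hspa1b in endothelial-like cells. They also overlap at 1 month for Hspa1a in beta-like cells. Hspa8 shows no such turn in beta-like or delta-like cells.

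Hspa1a, which encodes an Hsp70 that is made in quantity under stress, stood at 231 CPM in CCR2-DTR against 147 in WT alpha-like cells at 6 months (intervals 223 to 238 and 141 to 154). At 1 month it stood at 109 CPM in CCR2-DTR against 151 in WT alpha-like cells (104 to 113 and 146 to 157). The CCR2-DTR library was thus the highest of the 4 at 6 months and the lowest at 1 month. Delta-like cells showed the same order, with 301 CPM in CCR2-DTR against 196 in WT at 6 months and 133 in CCR2-DTR against 184 in WT at 1 month. In beta-like cells the levels were 49.7 CPM in CCR2-DTR against 39.4 in WT at 6 months, and 28.2 in CCR2-DTR against 30.4 in WT at 1 month. The 1-month beta-like gap was small: its log2 ratio of −0.11 had an interval from −0.22 to 0.00. The 6-month beta-like ratio of 0.34 depended on the setting: in cells thinned to 2000 UMIs it was 0.01, with a mean of 0.0912 UMIs per cell in CCR2-DTR against 0.0904 in WT.

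Of the 6 classes, endothelial-like cells had the widest 1-month gap in Hspa1a as a log2 ratio, though not in CPM. Endothelial-like cells had 328 CPM in CCR2-DTR against 278 in WT at 6 months, and 71.3 in CCR2-DTR against 131 in WT at 1 month. Macrophage-like cells had 640 CPM in CCR2-DTR against 563 in WT at 6 months, and 243 in CCR2-DTR against 371 in WT at 1 month. Mesenchymal-like cells had 332 CPM in CCR2-DTR against 321 in WT at 6 months, and 221 in CCR2-DTR against 303 in WT at 1 month. As log2 ratios of CCR2-DTR over WT, Hspa1a ran from 0.05 to 0.65 at 6 months and from −0.87 to −0.11 at 1 month, positive in 6 of 6 classes at 6 months and negative in 6 of 6 at 1 month. The mesenchymal-like value at 6 months, 0.05 with an interval from −0.28 to 0.38, could not be told from 0 at this depth, and its sign, like that of Hspa1b there, depended on the setting.

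Its neighbour Hspa1b, the second inducible Hsp70 gene, had the same signs, with log2 ratios further below 0 at 1 month in 6 of 6 classes. Alpha-like cells had 93.3 CPM in CCR2-DTR against 63.9 in WT at 6 months, and 36.0 in CCR2-DTR against 59.9 in WT at 1 month. Endothelial-like cells had 151 CPM in CCR2-DTR against 135 in WT at 6 months, and 30.1 in CCR2-DTR against 78.0 in WT at 1 month, a log2 ratio of −1.37 (−1.73 to −1.02) that was the lowest of any member in any class. In beta-like cells, where Hspa1b was scarce, it stood at 29.0 CPM in CCR2-DTR against 23.6 in WT at 6 months and at 12.9 in CCR2-DTR against 15.9 in WT at 1 month. The ratio was negative in 6 of 6 classes at 1 month, each time beyond counting error, and positive in 6 of 6 at 6 months, 4 of them beyond counting error. The sum of Hspa1a and Hspa1b, which does not depend on how reads were split between them, ran from 0.07 to 0.62 on the log2 scale at 6 months and from −1.04 to −0.17 at 1 month.

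Dnajb1 (chr8:83608193-83612653), the inducible Hsp40 partner of Hsp70, showed the turn beyond counting error in alpha-like and delta-like cells. In alpha-like cells it had 119 CPM in CCR2-DTR against 53.1 in WT at 6 months, and 64.8 in CCR2-DTR against 83.8 in WT at 1 month. Its log2 ratio there was 1.17 (1.05 to 1.29) at 6 months, the highest of any member in any class, and −0.37 (−0.47 to −0.27) at 1 month. In beta-like cells it had 36.5 CPM in CCR2-DTR against 25.4 in WT at 6 months and 21.6 in CCR2-DTR against 23.5 in WT at 1 month, where the interval of the ratio, −0.25 to 0.00, reached 0. In delta-like cells it had 154 CPM in CCR2-DTR against 99.6 in WT at 6 months and 73.1 in CCR2-DTR against 93.0 in WT at 1 month. The endothelial-like, macrophage-like and mesenchymal-like ratios of Dnajb1 all had intervals that held 0, at either age. In mesenchymal-like cells the 6-month value was below 0, at 41.3 CPM in CCR2-DTR against 69.4 in WT (log2 −0.75, −1.56 to 0.08).

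**Figure D2:**
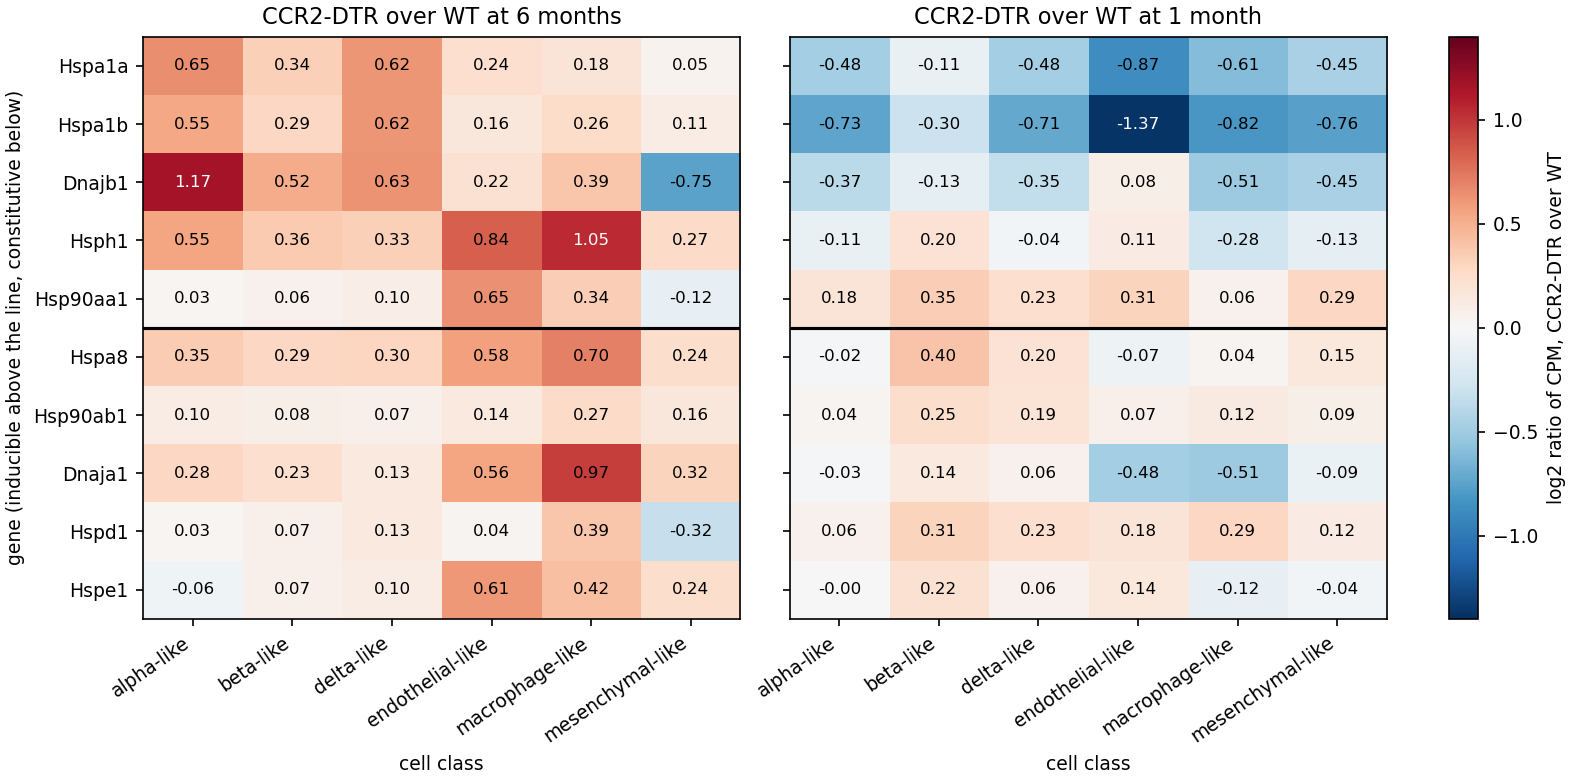
Log2 ratio of CPM, CCR2-DTR over WT, for the 10 members (rows) in 6 classes (columns) at 6 months and 1 month; red is higher and blue lower in CCR2-DTR. The first 2 rows are positive throughout at 6 months and negative throughout at 1 month, while at 1 month Hsp90aa1 is positive throughout and Dnaja1 reaches −0.51 in macrophage-like cells.

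Of the 2 remaining inducible members, Hsph1 shared the 1-month direction in part and Hsp90aa1 did not. Hsph1 (chr5:149614287-149636376), the Hsp110 that frees Hsp70 of spent nucleotide, was higher in CCR2-DTR in 6 of 6 classes at 6 months, with the sign lost under another setting in mesenchymal-like cells, among them macrophage-like cells with 69.6 CPM in CCR2-DTR against 33.7 in WT (log2 1.05, 0.39 to 1.75). At 1 month it lay between −0.28 and 0.20 on the log2 scale, with 2 classes above 0 and 4 below, and its sign depended on the setting in beta-like and delta-like cells and in endothelial-like and mesenchymal-like ones, though not in alpha-like or macrophage-like cells. Hsp90aa1 (chr12:110690605-110702728), the inducible cytosolic Hsp90, was higher in CCR2-DTR in 6 of 6 classes at 1 month, by 0.06 to 0.35 on the log2 scale. In beta-like cells it had 542 CPM in CCR2-DTR against 518 in WT at 6 months and 736 in CCR2-DTR against 578 in WT at 1 month. Its largest 6-month ratio was in endothelial-like cells, where 493 CPM in CCR2-DTR stood against 315 in WT (log2 0.65, 0.50 to 0.79). Hsp90aa1 thus ran against Hspa1a and Hspa1b at 1 month in every class, although in macrophage-like cells its ratio of 0.06 was within counting error.

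Hsp90aa1 holds most UMIs of the 5 inducible genes in beta-like cells. It made up 73.2% of the inducible UMIs of beta-like cells in CCR2-DTR against 77.2% in WT at 6 months, and 84.6% in CCR2-DTR against 81.4% in WT at 1 month. The inducible sum in beta-like cells was higher in CCR2-DTR at both ages, by 0.14 (0.11 to 0.17) at 6 months and by 0.29 (0.27 to 0.31) at 1 month on the log2 scale. The constitutive sum gave nearly the same values, 0.15 (0.13 to 0.17) at 6 months and 0.28 (0.27 to 0.30) at 1 month. The median gene of beta-like cells at 1 month was itself 0.20 higher in CCR2-DTR, and hormones took 48.4% of UMIs in CCR2-DTR against 54.4% in WT. Relative to that gene the inducible ratio was 0.0922 and the constitutive one 0.0834. The median gene was also shifted in delta-like cells at 1 month, by 0.10, and in mesenchymal-like cells at 6 months, by −0.15. With Hsph1 and Hsp90aa1 left out, the sum of Hspa1a, Hspa1b and Dnajb1 was 0.38 (0.30 to 0.47) at 6 months and −0.16 (−0.23 to −0.08) at 1 month. In the set as first drawn, the inducible and constitutive sums of beta-like cells therefore did not go separate ways. By member, 3 of 5 inducible genes lay below 0 at 1 month and 5 of 5 constitutive genes above it. Relative to the median gene the inducible Hsph1 (−0.004) and the constitutive Dnaja1 (−0.06) also lay below, so this split depends on the reference. The turn between the ages was carried by Hspa1a, Hspa1b and Dnajb1, grouped here after their values were seen.

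Among the constitutive members, Hspa8 (chr9:40800984-40810087), the housekeeping Hsp70 of the cytosol, was higher in CCR2-DTR in 6 of 6 classes at 6 months. Endothelial-like cells had 1639 CPM in CCR2-DTR against 1099 in WT at that age (log2 0.58, 0.50 to 0.65), and 1057 in CCR2-DTR against 1110 in WT at 1 month (−0.07, −0.14 to −0.00). Beta-like cells had 513 CPM in CCR2-DTR against 420 in WT at 6 months and 690 in CCR2-DTR against 524 in WT at 1 month, higher in CCR2-DTR at either age. Hsp90ab1 (chr17:45567775-45573271), the housekeeping Hsp90, varied least, with log2 ratios from 0.07 to 0.27 at 6 months and from 0.04 to 0.25 at 1 month, each beyond counting error. Several of these small Hsp90ab1 ratios lost their sign under another setting, in beta-like and mesenchymal-like cells at 6 months and in endothelial-like and mesenchymal-like cells at 1 month.

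Dnaja1 (chr4:40722150-40737149), another Hsp40 partner of Hsp70, followed the inducible pair in the non-endocrine cells. In macrophage-like cells it had 342 CPM in CCR2-DTR against 175 in WT at 6 months, and 159 in CCR2-DTR against 226 in WT at 1 month. In endothelial-like cells it had 679 CPM in CCR2-DTR against 462 in WT at 6 months, and 343 in CCR2-DTR against 478 in WT at 1 month. Its log2 ratios there were 0.97 (0.68 to 1.26) and 0.56 (0.44 to 0.68) at 6 months, and −0.51 (−0.81 to −0.20) and −0.48 (−0.59 to −0.36) at 1 month. In alpha-like, beta-like and delta-like cells it was higher in CCR2-DTR at 6 months, by 0.13 to 0.28, and lay between −0.03 and 0.14 at 1 month. Although listed as constitutive, Dnaja1 had the signs of Hspa1a at both ages in these 2 non-endocrine classes. The 1-month signs in alpha-like, beta-like and delta-like cells depended on the setting.

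The mitochondrial pair stayed close to even in the endocrine cells at 6 months. At 1 month it did so in alpha-like cells, while both genes in beta-like cells and Hspd1 in delta-like cells were higher in CCR2-DTR. Hspd1, the Hsp60 chamber, lay between 0.03 and 0.13 in alpha-like, beta-like and delta-like cells at 6 months, and Hspe1, its Hsp10 lid, between −0.06 and 0.10. At 1 month the beta-like ratios were 0.31 (0.26 to 0.36) for Hspd1 and 0.22 (0.17 to 0.26) for Hspe1, beside 0.20 for the median gene. The delta-like ratio of Hspd1 was 0.23 (0.13 to 0.33), beside 0.10, and that of Hspe1 was 0.06. The alpha-like ratios at 1 month were 0.06 for Hspd1 and −0.0003 for Hspe1. On the log2 scale the widest gap of Hspe1 was in endothelial-like cells at 6 months. There Hspe1 had 136 CPM in CCR2-DTR against 89.3 in WT (log2 0.61, 0.33 to 0.88), while Hspd1 was at 132 in CCR2-DTR against 128 in WT. The interval of Hspd1 there, −0.21 to 0.29, did not reach that of Hspe1.

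The counts past a log2 difference of 0.32 either way, for genes with at least 50 CPM and 10 UMIs, are given beside the share of all such genes; since the list was chosen on this contrast, nothing is read from them. At 6 months in alpha-like cells 5 of 10 members were higher in CCR2-DTR (3.18% of all genes) and 0 lower (0.522%), and in delta-like cells 4 higher (1.73%) and 0 lower (1.87%). At 1 month 3 members were lower in alpha-like cells (4.99% of genes) and 0 higher (1.92%), and 3 were lower in delta-like cells (3.55%) and 0 higher (3.48%). Alpha-like and delta-like cells thus gave the same counts of lower members at 1 month. Of the 10 members, 7 passed the floor in beta-like cells, and Hspa1a, Hspa1b and Dnajb1 did not. Among those that passed, 1 was higher (1.68%) and 0 lower (1.79%) at 6 months. At 1 month 2 were higher (15.6%) and 0 lower (1.95%). Endothelial-like cells had 5 higher (5.58%) and 0 lower (9.61%) at 6 months, and 0 higher (6.17%) and 3 lower (7.25%) at 1 month. Macrophage-like cells had 7 higher (19.8%) and 0 lower (12.0%) at 6 months, and 0 higher (16.8%) and 4 lower (13.4%) at 1 month. Mesenchymal-like cells, the class with the fewest cells at 6 months but not at 1 month, had 0 higher (20.7%) and 1 lower (36.7%) at 6 months. At 1 month they had 0 higher (10.9%) and 3 lower (12.5%).

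The genotype ratio at 6 months minus that at 1 month puts the turn into a single value. For Hspa1a, Hspa1b and Dnajb1 summed it was 1.24 (1.16 to 1.32) in alpha-like, 1.11 (1.02 to 1.21) in delta-like and 0.54 (0.42 to 0.65) in beta-like cells on the log2 scale. It was 0.97 (0.76 to 1.17) in endothelial-like, 0.88 (0.65 to 1.10) in macrophage-like and 0.50 (0.20 to 0.80) in mesenchymal-like cells. In 5 classes the 2 ratios had opposite signs beyond counting error, and in mesenchymal-like cells the 6-month ratio was −0.02 (−0.28 to 0.24). Of single members, Dnajb1 in alpha-like cells had a difference of 1.54, Dnaja1 in macrophage-like cells 1.47 and Dnaja1 in endothelial-like cells 1.03. These are examples and not the widest differences in order. Hspa1b in endothelial-like cells, for one, had ratios of 0.16 at 6 months and −1.37 at 1 month. With 1 library a group the difference was not tested.

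A share within the 10 genes does not depend on how large the rest of the transcriptome is. Hspa1a, Hspa1b and Dnajb1 made up 10.96% of the member UMIs of alpha-like cells in CCR2-DTR against 7.54% in WT at 6 months, and 4.92% in CCR2-DTR against 6.97% in WT at 1 month. In beta-like cells the share was 4.33% in CCR2-DTR against 3.67% in WT at 6 months, and 1.95% in CCR2-DTR against 2.65% in WT at 1 month. At 1 month the share was lower in CCR2-DTR in all 6 classes. At 6 months the classes split. The endocrine classes were higher in CCR2-DTR, whereas macrophage-like cells had 16.9% in CCR2-DTR against 19.5% in WT. Endothelial-like cells had 8.14% in CCR2-DTR against 8.84% in WT and mesenchymal-like cells 10.2% in CCR2-DTR against 11.3% in WT, both with overlapping intervals.

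**Figure D3:**
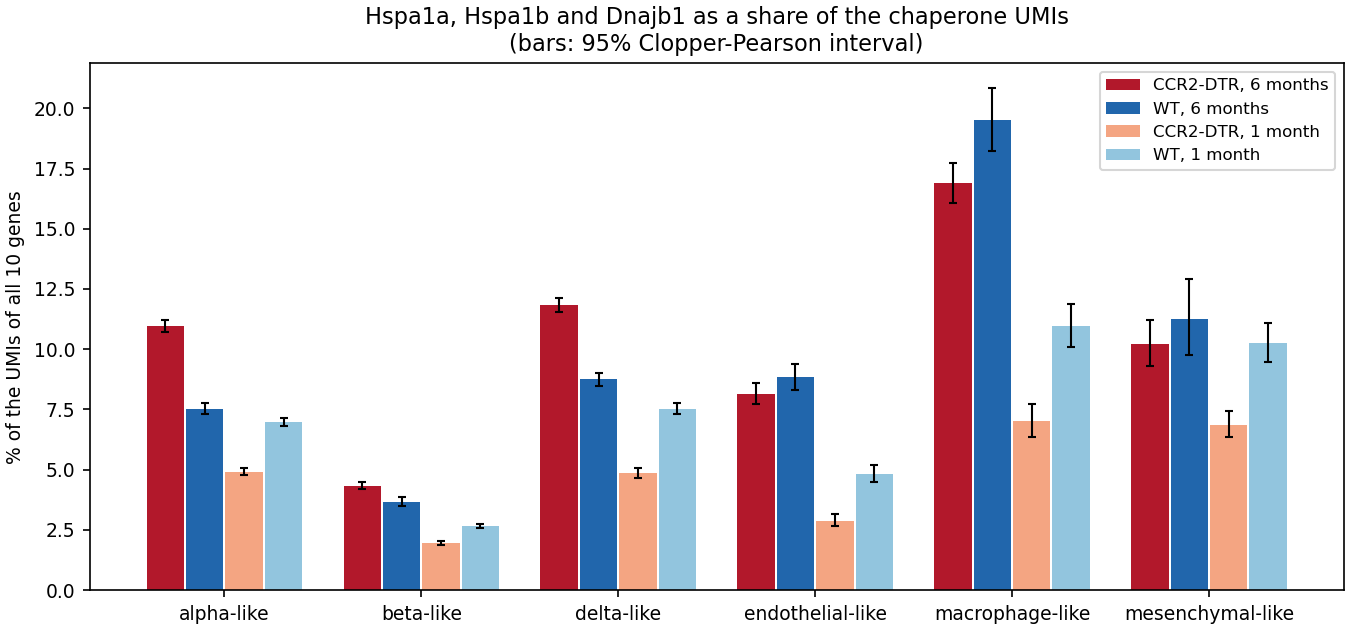
Hspa1a, Hspa1b and Dnajb1 as a percentage of the UMIs of all 10 genes, by class and library; bars carry 95% Clopper-Pearson intervals. Alpha-like cells reach 10.96% in CCR2-DTR against 7.54% in WT at 6 months, and 4.92% in CCR2-DTR against 6.97% in WT at 1 month, and in macrophage-like cells the 6-month WT bar, 19.5%, is the tallest of all.

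The 2 ages can also be set against each other within a genotype, using the same 4 libraries, so these values are not independent of those above. In CCR2-DTR the sum of Hspa1a, Hspa1b and Dnajb1 was higher at 6 months than at 1 month in 6 of 6 classes, by 0.67 to 1.84 on the log2 scale. In alpha-like cells it was 443 CPM at 6 months and 210 at 1 month, in delta-like cells 613 at 6 months and 256 at 1 month, and in beta-like cells 115 at 6 months and 62.7 at 1 month. In WT the same sum was 264 CPM at 6 months and 295 at 1 month in alpha-like cells, 398 at 6 months and 361 at 1 month in delta-like cells, and 88.4 at 6 months and 69.8 at 1 month in beta-like cells. The WT ratios ran from −0.16 to 0.88, so the wider age gap was in CCR2-DTR in every class. The largest of all was Hspa1b in CCR2-DTR endothelial-like cells, with a log2 ratio of 2.33 (2.00 to 2.67), beside 0.79 (0.53 to 1.06) in WT.

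With age the constitutive genes differed among themselves. Dnaja1 was higher at 6 months in 6 of 6 CCR2-DTR classes, by 0.08 to 1.10 on the log2 scale and each beyond counting error, as the 3-gene sum was, while in WT it lay between −0.37 and 0.06. Hsp90ab1 was lower at 6 months than at 1 month in 6 of 6 classes of both genotypes, with log2 ratios of −0.28 to −0.03 in CCR2-DTR and −0.35 to −0.10 in WT. Of these, 4 in CCR2-DTR and 5 in WT were beyond counting error. Hspa8 was lower at 6 months in alpha-like and beta-like cells of both genotypes, by −0.13 and −0.43 in CCR2-DTR and by −0.51 and −0.32 in WT. In CCR2-DTR endothelial-like cells it was higher at 6 months, by 0.63 (0.57 to 0.70), whereas the WT value was −0.01 (−0.09 to 0.07). These age ratios are not relative to the median gene, which itself differed between the ages. In alpha-like cells the median constitutive member was at −0.13 in CCR2-DTR and −0.11 in WT, but at −0.05 and 0.0005 relative to that gene. In beta-like cells it was at −0.27 in CCR2-DTR and −0.10 in WT, and at −0.11 and −0.13 relative to that gene. Age and library cannot be told apart here.

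**Figure D4:**
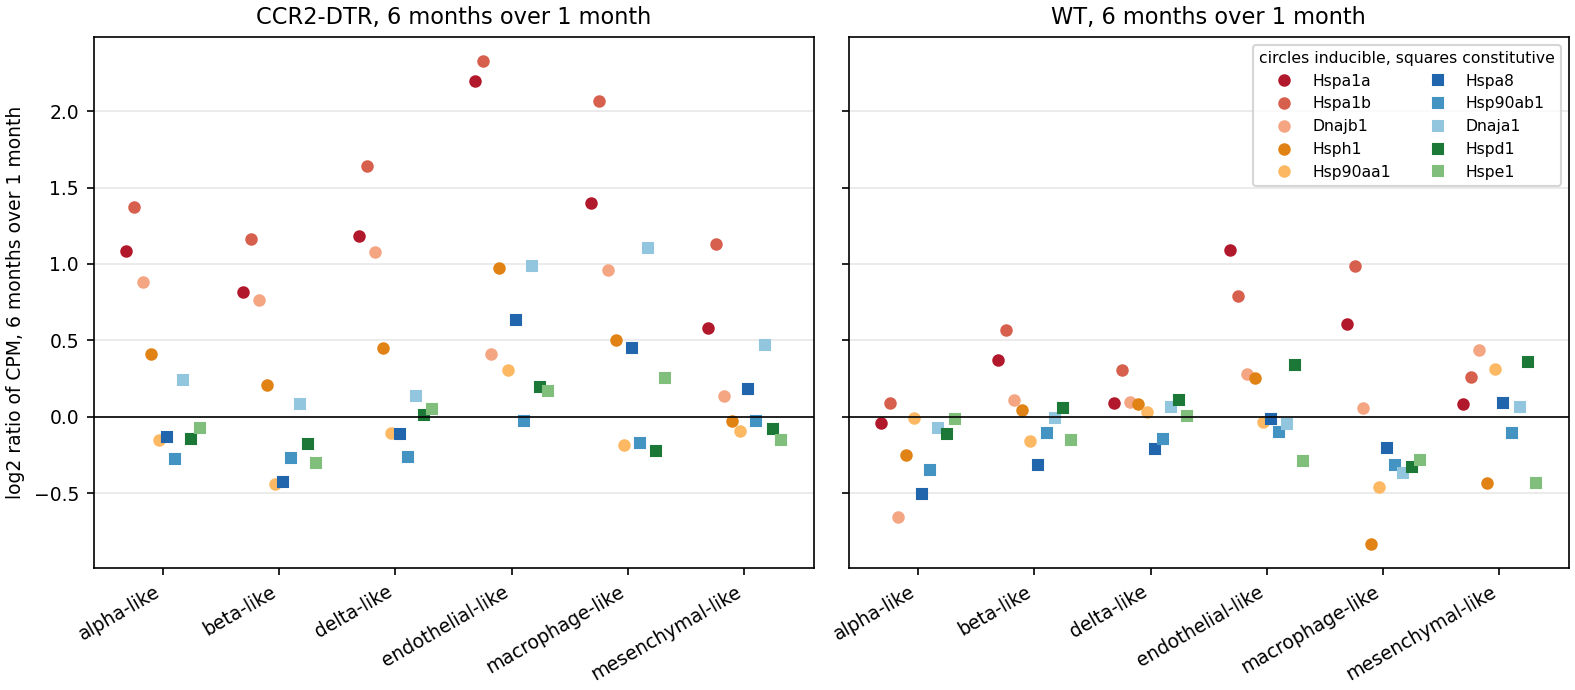
Log2 ratio of CPM, 6 months over 1 month, for each member in each class, in CCR2-DTR and in WT; circles are inducible and squares constitutive members. Hspa1a and Hspa1b reach 2.20 and 2.33 in CCR2-DTR endothelial-like cells, and in WT alpha-like cells lie at −0.04 and 0.09.

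To see whether the gaps came from few or many cells, each cell was thinned to 2000 UMIs, which left out shallower cells (2435 of 2486 CCR2-DTR and 2356 of 2387 WT alpha-like cells stayed at 1 month). A UMI of Hspa1a, Hspa1b or Dnajb1 was then found in 47.9% of CCR2-DTR and 36.9% of WT alpha-like cells at 6 months, and in 29.8% of CCR2-DTR and 36.1% of WT ones at 1 month. Unthinned, the 6-month alpha-like shares were 83.6% in CCR2-DTR against 85.8% in WT, an order that goes against the CPM, at different depths. In beta-like cells the thinned shares were 19.8% in CCR2-DTR against 16.0% in WT at 6 months and 10.9% in CCR2-DTR against 11.7% in WT at 1 month. No class is known to lack these genes, so a background share from free RNA could not be set. In the thinned alpha-like and beta-like cells the share of cells with a UMI had the order of the CPM at both ages, but in beta-like cells the intervals overlapped at either age.

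In alpha-like cells Hspa1a was found more often in cells that had another of these RNAs. Of thinned CCR2-DTR alpha-like cells at 6 months, 46.6% of those with Hspa1b also had Hspa1a, against 26.5% of those without Hspa1b. In WT at 6 months the shares were 36.1% with and 21.4% without Hspa1b. The mitochondrial Hspe1 made little difference, with Hspa1a in 30.3% of CCR2-DTR alpha-like cells that had Hspe1 and 29.2% of those that did not. Reads shared between the near-identical copies can add to the link of Hspa1a with Hspa1b, which was not tested. With Dnajb1 as the other gene, Hspa1a was in 38.4% of CCR2-DTR alpha-like cells with and 27.3% of those without Dnajb1 at 6 months. In WT alpha-like cells at 6 months the shares were 28.2% with and 22.3% without Dnajb1, with overlapping intervals. This order did not hold in every class. In CCR2-DTR beta-like cells at 6 months Hspa1a was in 4 of 87 cells with and 87 of 1020 without Dnajb1. In endothelial-like ones it was in 26.7% with and 35.5% without Dnajb1, with overlapping intervals in both classes. The variance of the 3-gene count over its mean, 1 for evenly spread molecules, was 1.89 in CCR2-DTR against 1.66 in WT alpha-like cells at 6 months and 1.10 in CCR2-DTR against 1.04 in WT beta-like cells.

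The classes are not uniform, so the ratio was also taken within clusters. Hspa1a and Hspa1b were themselves among the 1962 variable genes on which cells were clustered. Clusters found again without the 10 genes, an alternative added after seeing the data, are therefore used here. Only clusters with at least 50 cells in both libraries compared were counted. Among them the 3-gene sum was higher in CCR2-DTR in 10 of 10 at 6 months (log2 0.10 to 0.75) and lower in 13 of 13 at 1 month (−0.75 to −0.02). The −0.02 came from a beta-like cluster, with an interval from −0.30 to 0.26. The clusters are parts of the same libraries and not repeats, and the 3 genes were grouped on this contrast, so nothing is read from the counts. The alpha-like clusters led by Gcg and by Ghrl had 0.64 and 0.75 at 6 months and −0.34 and −0.36 at 1 month. The beta-like ratio was 0.43 (0.34 to 0.53) in the Trpm5-led cluster and 0.10 (−0.09 to 0.30) in the Ucn3-led one at 6 months. In the Rgs5-led mesenchymal-like cluster the 6-month ratio was 0.47 (0.17 to 0.77), with 748 CPM in CCR2-DTR against 541 in WT, although the whole class was even. The Dcn-led cluster held 48 of the CCR2-DTR and 7 of the WT mesenchymal-like cells at that age, so it was not among the 10 counted. In the clustering that used the genes, a Wnk3-led cluster held 56.8% of CCR2-DTR and 40.2% of WT alpha-like cells at 6 months and 23.7% of CCR2-DTR and 42.2% of WT ones at 1 month, and a Gcg-led cluster held most of the others. The 3-gene ratios there were 0.18 in the Gcg-led and 0.55 in the Wnk3-led cluster at 6 months and −0.12 and −0.32 at 1 month.

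Other measures also differed between the libraries and are given beside these genes. Barcodes over 15% mitochondrial UMIs were 13.3% in CCR2-DTR against 8.65% in WT at 6 months, and 12.8% in CCR2-DTR against 5.04% in WT at 1 month, so this sign of cell quality was higher in CCR2-DTR at both ages. Among beta-like cells with at most 4% mitochondrial UMIs the 3-gene ratio was −0.01 (−0.18 to 0.15) at 6 months and 0.07 (−0.15 to 0.28) at 1 month. At 8% to 15% it was 0.65 (0.44 to 0.86) at 6 months and −0.35 (−0.51 to −0.19) at 1 month. The beta-like turn was thus not seen in the cells with the lowest mitochondrial share. Alpha-like cells with at most 4% kept it, at 0.43 (0.35 to 0.51) and −0.61 (−0.75 to −0.47). The summed level of 12 acinar markers, genes of the exocrine pancreas, was 267 CPM in CCR2-DTR against 29.97 in WT alpha-like cells at 6 months and 222.5 in CCR2-DTR against 13.5 in WT at 1 month. It was higher in CCR2-DTR in every class at both ages except in 2 cases. Beta-like cells at 6 months had 169 CPM in CCR2-DTR against 1534 in WT, and macrophage-like cells at 1 month had 458 in CCR2-DTR against 11493 in WT, where 1 cell held 58.4% and 99.5% of the WT sum. Its part in the chaperone values was not tested.

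Immediate early genes, which dissociation also switches on, moved with Hspa1a in part. Of 13 such genes, those past the floor in alpha-like cells lay above the median gene in 10 of 10 cases at 6 months, with a median log2 ratio 0.82 above it, and below it in 9 of 9 at 1 month, 0.15 under it. Delta-like cells gave 9 of 9 above (0.54) at 6 months and 9 of 9 below (−0.15) at 1 month. Ier2, an early response gene, had 76.4 CPM in CCR2-DTR against 30.5 in WT alpha-like cells at 6 months, and 84.4 in CCR2-DTR against 107 in WT at 1 month, an example picked after its values were seen. Beta-like cells did not show this at 1 month. There Fos was at 121 CPM in CCR2-DTR against 91.8 in WT, and 5 of 6 early genes lay above the median gene while Hspa1a, Hspa1b and Dnajb1 lay below it. In mesenchymal-like cells 12 of 12 were above it at 6 months (0.88), although the 3-gene sum was even. The part of handling in either set was not tested.

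The wider chaperone network did not follow the 3 genes as a whole. Chaperones of the endoplasmic reticulum lay above the median gene at 1 month in 13 of 13 members past the floor in alpha-like, 12 of 14 in beta-like and 13 of 14 in delta-like cells. At 6 months they lay mostly below it, with 10 of 12 below in alpha-like and 11 of 13 in beta-like cells. Sdf2l1, a secretory pathway chaperone, had 136 CPM in CCR2-DTR against 152 in WT beta-like cells at 6 months and 424 in CCR2-DTR against 306 in WT at 1 month. In alpha-like and beta-like cells the median of this list and the 3-gene sum thus lay on different sides of the median gene at each age. The non-endocrine classes had medians of 0.02 to 0.43 at 6 months. Cytosolic co-chaperones had medians within 0.18 of the median gene in every class at either age. In beta-like cells Fkbp4, an Hsp90 partner, had a log2 ratio of 0.16 at 6 months and 0.38 at 1 month, and St13, an Hsp70 partner, 0.08 and 0.03. Ubb, a ubiquitin gene, had 1303 CPM in CCR2-DTR against 1454 in WT beta-like cells at 6 months and 1707 in CCR2-DTR against 1343 in WT at 1 month. The TRiC chaperonin, which folds actin and tubulin, had medians from −0.14 to 0.25 relative to that gene. Further HSF1 targets were mostly scarce, and 2 to 9 of 13 passed the floor. In delta-like and endothelial-like cells 7 of 7 lay above the median gene at 6 months, with medians of 0.13 and 0.41, and at 1 month 6 of 7 and 3 of 5 lay below it. Of the HSF factors only Hsbp1, an HSF1-binding protein, passed the floor, and of mitochondrial chaperones 1 to 4 of 8 did, Hspa9 among them.

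**Figure D5:**
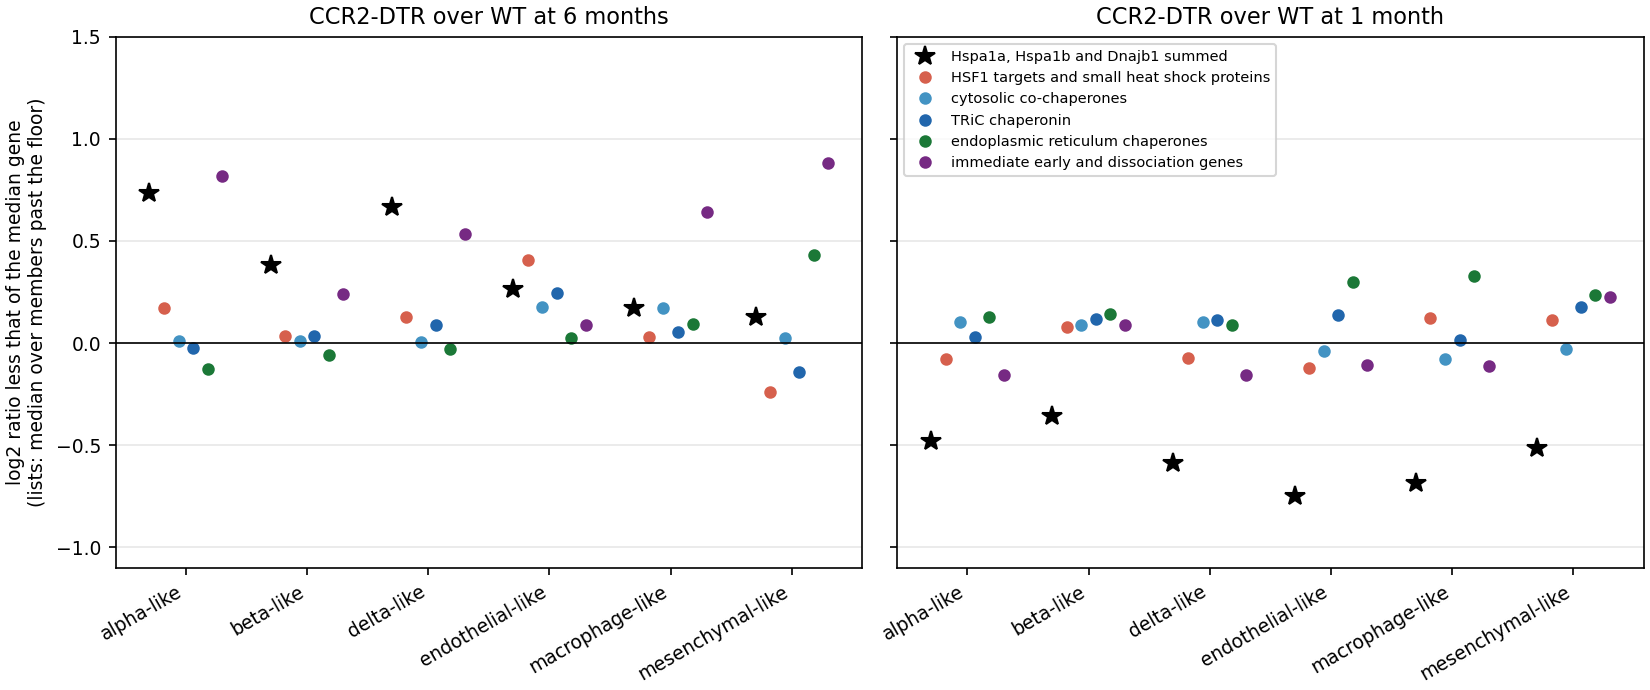
Log2 ratio of CCR2-DTR over WT less that of the median gene, at 6 months and 1 month: stars are Hspa1a, Hspa1b and Dnajb1 summed, and points are the medians of 5 gene lists over members past the floor. The stars are below 0 in all classes at 1 month; at 6 months the immediate early list lies above the median gene in all classes, at 0.82 in alpha-like cells.

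As a last description, all genes were ranked by how their level followed the mean of the inducible members over 24 pairs of class and library, after taking out the mean of each class. Hspa1a (Pearson r = 0.958), Hspa1b (0.924) and Dnajb1 (0.828) led, as parts of that mean, but its other parts did not, with Hsph1 (0.674) at rank 75 and Hsp90aa1 (−0.04) at rank 984, and the constitutive Dnaja1 (0.782) stood at rank 13 of 2455 genes. The 10 most alike genes outside the list were Rps29 (0.826), Rps28 (0.812), Crebrf (0.811), Rplp2 (0.809), Nudcd3 (0.801), Rps21 (0.799), Rps24 (0.795), Zfp36 (0.792), Rplp1 (0.790) and Rpl30 (0.779). Of these, 7 encode ribosomal proteins. The 24 points come from 4 libraries and share their depth and preparation.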

How the data were processed

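Per the labels, islets were isolated by collagenase digestion, a Ficoll gradient and hand picking, and 10x Genomics Chromium libraries were made. The authors deposited filtered UMI count matrices, with feature and barcode names beside them, unnormalised. Per the submitters' processing notes these came from Cell Ranger 5.0.1 with mm10. For the annotation release, intronic reads and multimapped reads: not given in the sources used here.

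Barcodes under 1000 UMIs or 500 genes, over 15% mitochondrial UMIs or with a doublet score over 0.25 were removed (scanpy 1.11.5). Cells were normalised to 10000 UMIs and clustered together on 1962 variable genes (30 components, 15 neighbours, Leiden resolution 1; leidenalg 0.10.2, igraph 0.11.9). Clusters took a name from 21 marker sets. Digestive enzyme and haemoglobin genes were left out of clustering and the doublet threshold was made common to all libraries after the data were seen. Raw counts were summed per class and library. Ratios of CPM carry exact conditional intervals for 2 Poisson counts, CPM carry exact Poisson intervals, and shares carry Clopper-Pearson intervals (scipy 1.17.1), all at 95% and for counting error only. The ratio intervals were checked on Poisson counts simulated for beta-like cells at 1 month. Such counts hold counting error alone, so the check cannot speak for any wider spread between cells or animals. The difference between 2 log2 ratios carries an interval from the counting errors of both. With 1 library a group nothing was tested. A class held 345794 to 58934532 UMIs per library.

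The members and lists were chosen with earlier results of these data known. All 10 members are named. From the lists, genes with the largest or smallest log2 ratio in beta-like cells at either age, among those past the floor, could be named. The grouping of Hspa1a, Hspa1b and Dnajb1 was also chosen after their values were seen. Genes said to be picked after their values were seen are outside this. The most alike genes were taken by Pearson correlation of log2(CPM + 10). Coordinates and promoters are from GRCm38.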

Additional observations from a re-analysis of the deposited data

Results flagged for a closer look

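The log2 genotype ratio of Hspa1a, Hspa1b and Dnajb1 summed was above 0 at 6 months and below 0 at 1 month, each beyond counting error, in 5 classes. The 6-month ratio exceeded the 1-month ratio by 1.24 in alpha-like, 0.54 in beta-like, 1.11 in delta-like, 0.97 in endothelial-like and 0.88 in macrophage-like cells. In macrophage-like cells the sum of all 5 inducible members did the same, with a difference of 0.54 between 0.29 at 6 months and −0.25 at 1 month. None of these differences was tested, since each group is 1 library, and their cause was not tested. In beta-like cells Hspa1a, Hspa1b and Dnajb1 each lay under the floor of 50 CPM in every library.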

How the results depend on the processing

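No paired analysis was possible because each group is 1 library and the labels carry no replicate numbers; for the same reason no library could be left out. Values at least 0.32 from 0 on the log2 scale kept their sign in 538 of 538 comparisons with another setting. They were picked for their size and every setting reuses the same counts, so this is a weak check. Size was not always kept: Hspa1a in beta-like cells at 6 months went from 0.34 to 0.01 in thinned cells. Some smaller values turned sign. The 3-gene sum was 0.71 to 0.85 in alpha-like, 0.25 to 0.38 in beta-like and 0.52 to 0.67 in delta-like cells at 6 months over all settings, and −0.49 to −0.45, −0.36 to −0.11 and −0.59 to −0.41 at 1 month. It was 0.15 to 0.28 in endothelial-like, 0.17 to 0.46 in macrophage-like and −0.23 to 0.16 in mesenchymal-like cells at 6 months, and −0.92 to −0.64, −1.17 to −0.54 and −0.84 to −0.25 at 1 month. The widest of these macrophage-like values came from thinned cells at 6 months and clustering resolution 2 at 1 month. The beta-like 1-month value, −0.16, was −0.33 without hormone genes in the total and −0.36 relative to the median gene. The cause of these moves was not tested.

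In beta-like cells the sums moved beyond counting error as follows. Without hormone genes in the total, the 1-month inducible ratio was 0.11 and the constitutive one 0.11. Relative to the median gene they were 0.0922 and 0.0834. With each cell weighted the same they were 0.27 and 0.27 at 1 month, and the inducible one was 0.11 at 6 months. In thinned cells the constitutive one was 0.26 at 1 month. With Hsph1 and Hsp90aa1 counted as constitutive, the inducible ratio was 0.38 at 6 months and, with its sign turned, −0.16 at 1 month, and the constitutive one 0.30 at 1 month. With the Car15-led cluster counted as beta-like, a setting added after seeing the data, the 6-month ratios were 0.0869 and 0.11. Clustering without the 10 genes, also added, moved 0 of 156 values beyond counting error. Depth limits the mesenchymal-like values at 6 months, which rest on 115 CCR2-DTR and 60 WT cells.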

Other observations

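Among clusters that carried no class name, the Ppy-led one had 592 CPM of Hspa1a, Hspa1b and Dnajb1 summed in CCR2-DTR against 473 in WT at 6 months, and 237 in CCR2-DTR against 359 in WT at 1 month. The Car15-led one had 215 CPM in CCR2-DTR against 192 in WT at 6 months, and 119 in CCR2-DTR against 137 in WT at 1 month. Both had the order seen in the named classes other than mesenchymal-like cells at 6 months. A cluster of low UMI count, with 612 CCR2-DTR and 1013 WT cells at 6 months and 287 CCR2-DTR and 24 WT cells at 1 month, differed from them: it had 355 CPM in CCR2-DTR against 243 in WT at 6 months, but 211 in CCR2-DTR against 126 in WT at 1 month, where the WT value rests on 12 UMIs.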
